A study of Arabidopsis thaliana with 6 samples.

Results

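Loss of Pol V in plants that already lacked DDM1 was followed through long-read transcript models of transposable elements (TEs) in Arabidopsis thaliana. The library titled ddm1 pol V, written ddm1 polV here, was set against the ddm1 library. Both came from immature flower buds of ecotype Columbia (inflorescence stages 1 to 12), from plants grown at 22 °C with 16 h of light, and were sequenced in round 1 after 14 PCR cycles. DDM1 was thus mutated on both sides, and the sides differed by the added polV mutation. A polV mutant with DDM1 intact was not analysed here. The labels give no allele, no number of plants and no generation for either mutant. A model is a transcript structure built from a cluster of at least 10 full-length cDNA reads, and its cluster reads are the unit of level used here. Models that shared at least 1 bp of exon on the same strand were joined into a locus, named by the first TE identifier paired with it. A suffix such as -2 marks another locus with the same first identifier. The 145 models of ddm1 polV and the 48 of ddm1 gave 131 loci, of 344 loci in all 6 libraries of the series. The other libraries were wt, ddm1 rdr6, and ddm1 rdr6 polV in replicates A (round 1) and B (round 2, 13 PCR cycles, deeper per the labels). They give values beside the pair: reads and structures at its loci, and the same comparison between ddm1 rdr6 and replicate A.

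DDM1 is a chromatin remodeler that lets DNA methyltransferases reach TEs packed in heterochromatin, and its loss leaves many TEs with less DNA methylation and able to be transcribed. Pol V is a plant RNA polymerase that makes non-coding scaffold transcripts at silenced loci. Small interfering RNAs bound to ARGONAUTE proteins pair with these scaffolds and bring in the methyltransferase DRM2, a route called RNA-directed DNA methylation. RDR6 makes double-stranded RNA from transcripts, which feeds small interfering RNAs of active TEs. TEs of the types met here differ in kind: CACTA (En/Spm), MuDR and hAT elements are DNA transposons that move as DNA, Copia elements are retrotransposons that move through RNA, and Sadhu elements are small non-autonomous retroposons.

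The bases just before the start of a model are shown for loci of high reads or ratios, mostly chosen because they hold the letters TATAAA. AT4TE25050 and AT2TE24735-2, among the 5 loci only in ddm1 polV with most reads, are shown as starts without a match and with a more distant one. AT3TE60425, AT5TE39850, AT2TE25540, AT3TE53850 and AT5TE44130 had models in ddm1 polV and none in ddm1. AT2TE19610 and AT4TE15820 had models in both libraries and the highest ratios of reads. Each sequence is the 60 bases before the first base of the most-read model, 5′ to 3′ on the strand of the model, from the TAIR10.1 reference. Capitals mark the letters TATAAA, the core of a TATA box.
AT3TE60425 (minus strand, chr3:14791414-14791473): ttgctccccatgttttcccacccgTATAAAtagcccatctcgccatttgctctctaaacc
AT2TE19610 (plus strand, chr2:4727500-4727559): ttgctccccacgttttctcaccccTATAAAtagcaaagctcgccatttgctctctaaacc
AT4TE15820 (minus strand, chr4:3506699-3506758): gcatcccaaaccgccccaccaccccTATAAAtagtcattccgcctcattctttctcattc
AT5TE39850 (plus strand, chr5:10957874-10957933): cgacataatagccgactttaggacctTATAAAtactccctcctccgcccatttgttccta
AT5TE44130 (minus strand, chr5:12444943-12445002): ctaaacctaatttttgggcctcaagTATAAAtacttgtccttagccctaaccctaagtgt
AT2TE25540 (minus strand, chr2:6264319-6264378): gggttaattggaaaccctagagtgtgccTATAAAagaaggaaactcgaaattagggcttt
AT3TE53850 (plus strand, chr3:13168199-13168258): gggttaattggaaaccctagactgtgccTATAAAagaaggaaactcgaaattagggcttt
AT4TE25050 (minus strand, chr4:5947737-5947796): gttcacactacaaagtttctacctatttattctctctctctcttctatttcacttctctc
AT2TE24735-2 (minus strand, chr2:6077844-6077903): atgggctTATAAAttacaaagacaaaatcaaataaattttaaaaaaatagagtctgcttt
The windows of AT2TE25540 and AT3TE53850, on different chromosomes, were the same at 59 of 60 bases. Those of AT2TE19610 and AT3TE60425 were the same at 54 of 60.

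The match began between 32 and 36 bases before the start in all windows shown but those of AT2TE24735-2 (53 bases) and AT4TE25050 (no match). TATAAA stood on the model's strand within 60 bases of the start at 16 of the 87 loci found only in ddm1 polV (18.4%, exact Clopper-Pearson 95% interval 10.9 to 28.1). It stood there at 6 of the 40 shared loci (15%, 5.71 to 29.8), and at 12.7% of 27444 protein-coding genes. On either strand the shares were 23.0%, 17.5% and 18.0%. A window from 40 to 25 bases before the start, chosen after the positions were seen, held the match at 13 of the 87 loci (14.9%, 8.2 to 24.2), 6 of the 40 shared loci and 5.56% of the genes. A match of letters is a description of these windows and not a test of promoter use. Among the 10 loci only in ddm1 polV with most reads, 6 held the match within 60 bases, and among the 8 shared loci of highest ratio 2 did, AT2TE19610 and AT4TE15820.

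Splice sites are shown for the MuDR-like loci, because related copies with the same splice sites fell on both sides of the comparison. AT1TE27295 and AT4TE67560 had models in both libraries. AT4TE25050, AT1TE44125 and AT3TE70635 had models in ddm1 polV and none in ddm1. The donor of intron 2 is given with 20 bases of exon before and 20 of intron after the junction, and capitals mark the first 2 bases of the intron.
AT1TE27295 (plus strand, chr1:8457836-8457875): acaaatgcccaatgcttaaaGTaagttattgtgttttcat
AT4TE67560 (minus strand, chr4:14284063-14284102): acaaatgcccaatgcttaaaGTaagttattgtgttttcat
AT4TE25050 (minus strand, chr4:5947206-5947245): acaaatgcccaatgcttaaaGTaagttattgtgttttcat
AT1TE44125 (minus strand, chr1:13486452-13486491): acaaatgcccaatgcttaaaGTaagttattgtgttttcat
AT3TE70635 (plus strand, chr3:17433619-17433658): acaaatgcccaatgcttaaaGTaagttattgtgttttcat
These 5 windows were the same letter for letter. They were chosen for that among 8 MuDR-like loci: AT2TE43165 had the same window too, that of AT5TE53465 differed at 1 of 40 bases and that of AT5TE44235 at 3. The donor of intron 1, shown next in the same way, varied more, but did not divide shared loci from loci only in ddm1 polV.
AT1TE27295 intron 1 (plus strand, chr1:8457396-8457435): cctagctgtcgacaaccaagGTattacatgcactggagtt
AT4TE25050 intron 1 (minus strand, chr4:5947604-5947643): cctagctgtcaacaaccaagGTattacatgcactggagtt
AT3TE70635 intron 1 (plus strand, chr3:17433221-17433260): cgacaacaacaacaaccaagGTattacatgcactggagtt
AT1TE44125 intron 1 (minus strand, chr1:13486756-13486795): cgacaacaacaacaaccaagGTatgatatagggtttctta
Against the window of AT1TE27295, that of AT4TE25050 differed at 1 of 40 bases, that of AT3TE70635 at 9 and that of AT1TE44125 at 20.

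Of the 131 loci, 87 had a model in ddm1 polV and none in ddm1 (66.4%), 40 were shared, and 4 had a model in ddm1 and none in ddm1 polV (3.05%). Cluster reads at shared loci summed to 1166 in ddm1 and 2710 in ddm1 polV. The loci only in ddm1 polV held 1593 reads, 37.0% of all TE cluster reads of that library, and the loci only in ddm1 held 46 reads, 3.8% of that library. Most loci only in ddm1 polV stood near the minimum of 10 reads. Their median was 14 reads (order-statistic 95% interval 12 to 17), 60 of the 87 had under 20, and 18 had exactly 10. Shared loci had a median of 40.5 reads in ddm1 polV (29 to 51) and 22 in ddm1 (17 to 27). Each side was 1 library, so nothing here has a replicate check. Intervals of read ratios cover counting error only, and those of shares and medians describe sampling of loci within these libraries. Copies made by PCR were not told apart by molecular identifiers, so reads are not independent molecules. Fewer cells of a type and less RNA per cell cannot be told apart in such bulk samples.

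The classes depended on the read minimum, because the files give no library totals. With 20 reads required of every model, 39 loci were only in ddm1 polV, 18 shared and 3 only in ddm1. With the minimum in ddm1 polV raised by the median read ratio at shared loci, to 22 reads, the numbers were 22, 30 and 14. With it raised by the ratio of all TE cluster reads (3.55), to 35.5 reads, they were 4, 19 and 25, and more loci were then only in ddm1 than only in ddm1 polV. That last ratio contains the loci being compared, and the median ratio leaves out every locus without a model in both libraries. The 4 loci that passed it were AT3TE60425, AT5TE39850, AT4TE25050 and AT2TE25540.

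**Figure D1:**
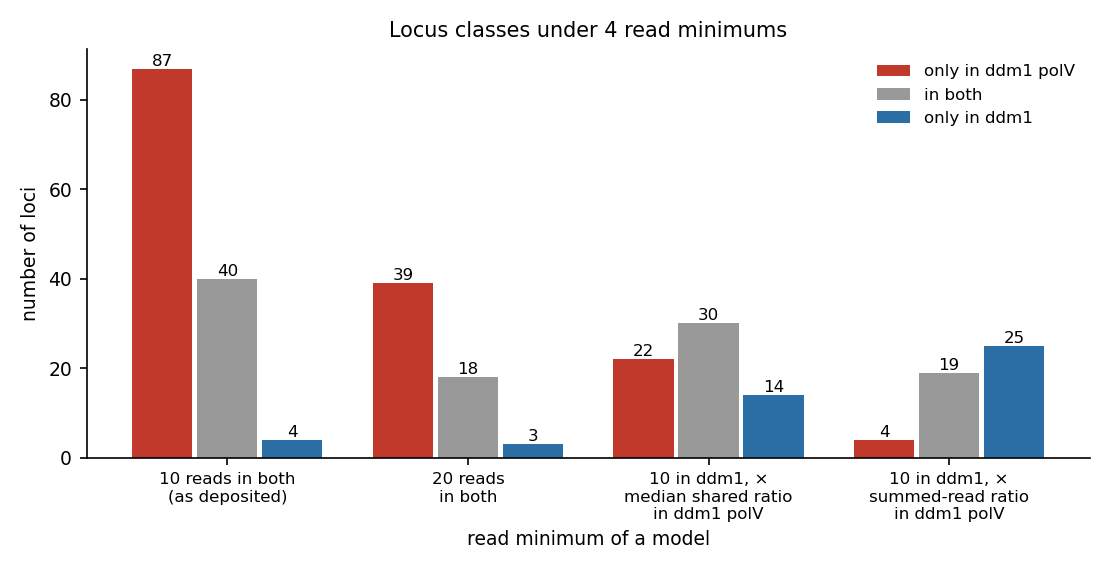
Number of loci (vertical axis) found only in ddm1 polV, in both libraries or only in ddm1, under 4 read minimums of a model (horizontal axis). The bar of loci only in ddm1 polV is the tallest at 10 and at 20 reads in both libraries, and the shortest, at 4 loci, when the ddm1 polV minimum is multiplied by the ratio of summed reads.

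The locus with most reads among those only in ddm1 polV was AT3TE60425 (chr3:14789045-14791413, minus strand), antisense to an exon of the lncRNA gene AT3G06465. It had 95 reads in ddm1 polV and no model in ddm1. Other libraries gave it 12 reads (ddm1 rdr6) and 94 (replicate B), and replicate A no model. Its 2 models shared their first and last bases and differed by 1 exon. AT5TE39850 (chr5:10957934-10959012) had 52 reads in ddm1 polV, 27 in ddm1 rdr6, 59 in replicate A and 379 in replicate B. It had 2 exons, 269 nt of spliced RNA and no annotated gene on either strand. AT4TE25050 (MuDR-like, in the pseudogene AT4G09380) had 46 reads in ddm1 polV and 34, 23 and 85 in ddm1 rdr6, A and B. Reads of that element had 4 near-identical places in the genome, 2 of which had ddm1 models.

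AT2TE25540 (chr2:6263366-6264318, minus strand, 4 exons) had 37 reads in ddm1 polV, none in ddm1 rdr6, 16 in replicate A and 169 in replicate B. It was the only locus of the 10 with most reads that had no model in ddm1 rdr6. AT3TE53850, whose start window was nearly the same, also had 4 exons, with 34 reads in ddm1 polV, 21 in ddm1 rdr6, 93 in A and 725 in B. The remaining 5 were AT2TE24735-2 (35 reads), AT5TE44130 (33), AT5TE72580 (32), AT3TE53580 (31) and AT1TE59235 (29), and each of them had a model in ddm1 rdr6 with 10 to 22 reads. AT5TE72580, which lies on AT5G49645 (a protein-coding gene), was the only locus of the 87 with a model in wt, of 11 reads. Of these 10 loci, 8 were multi-exon and 8 lay in pericentromeric bins, against 59.8% and 77.0% of all 87.

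**Figure D2:**
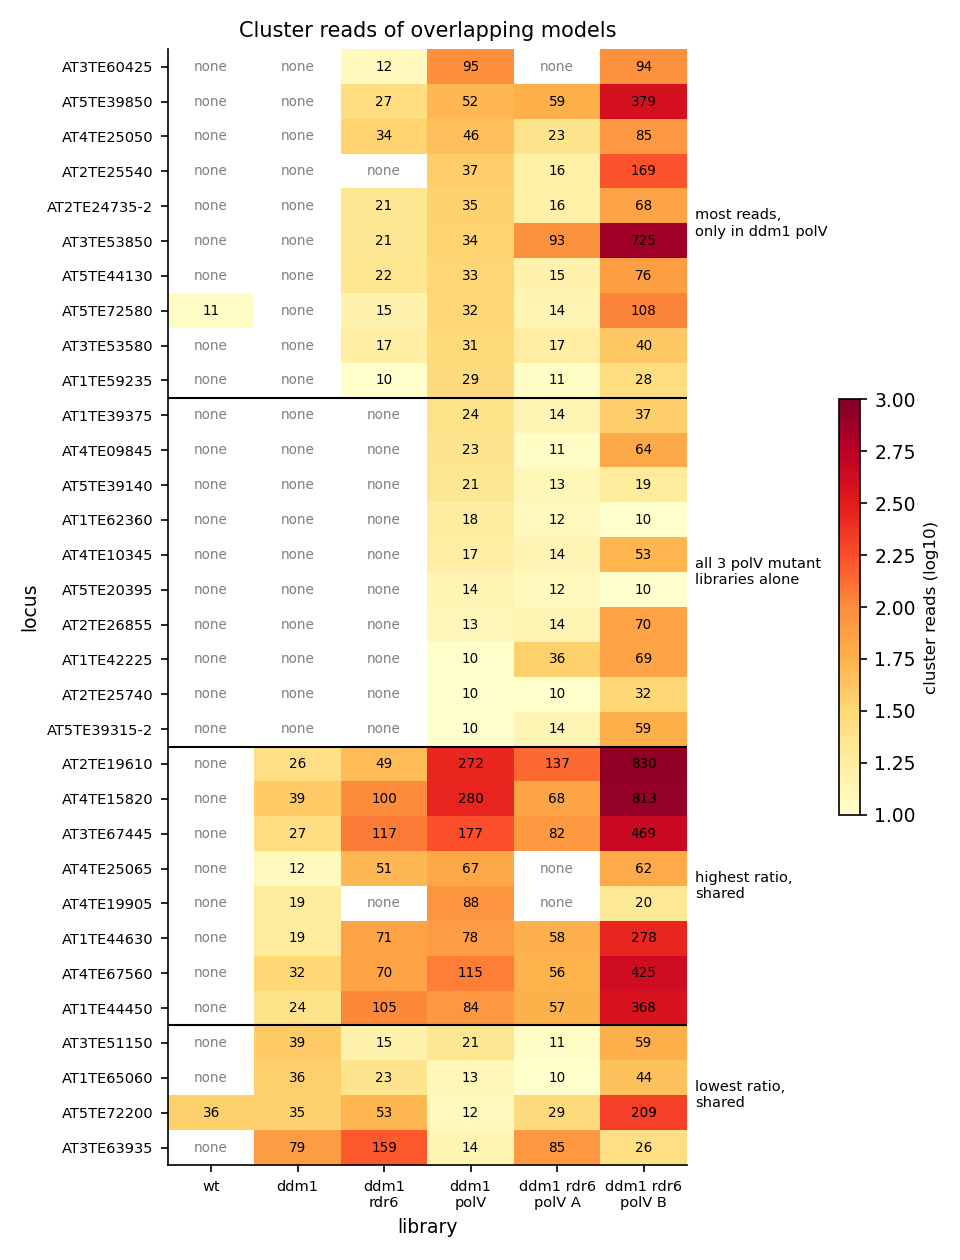
Cluster reads of overlapping models (numbers, colour on a log10 scale, "none" where no model was listed) for named loci (rows) in the 6 libraries (columns). The top 10 rows are the loci only in ddm1 polV with most reads, of which 9 had reads in ddm1 rdr6, and the next rows are the loci listed in all 3 polV mutant libraries and in no other.

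Most loci only in ddm1 polV were seen again in another library, 34 of the 87 in replicate B alone. A replicate B model overlapped 81 of the 87 (93.1%, 85.6 to 97.4), and models of ddm1 rdr6 overlapped 36 (41.4%, 30.9 to 52.4). Replicate A, which also lacked Pol V and was sequenced in round 1, had models at 33 (37.9%, 27.7 to 49.0). Over all 344 loci of the 6 libraries, replicate B had models at 334, ddm1 rdr6 at 92 and replicate A at 80. A model in replicate B is thus no particular trait of the 87 loci. At the 40 shared loci the shares were 97.5%, 95% and 77.5% in the same order of libraries. Shared loci also had more reads in ddm1 polV, with a median of 40.5 against 14, and part of the difference by reads was not tested. For 51 of the 87 loci no library with intact Pol V (wt, ddm1 or ddm1 rdr6) had a model. These are the loci without a ddm1 rdr6 model, since the class excludes ddm1 and wt had only 6 models. They had a median of 12 reads in ddm1 polV. Of those 51, 11 had models in all 3 polV mutant libraries. AT2TE25540 led this set with 37 reads. AT1TE39375 had 24 reads in ddm1 polV, 14 in A and 37 in B, and AT4TE09845 had 23, 11 and 64. The Sadhu element SADHU8-1 (AT1TE62360, chr1:18806497-18807399, 903 nt, 1 exon) had 18, 12 and 10 reads, in the same order. The other 7 had 10 to 21 reads in ddm1 polV. Of the 36 loci with a ddm1 rdr6 model, 22 also had one in replicate A and 14 did not.

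A further 6 loci had no model in any other library. AT2TE16580 had 25 reads, AT1TE29570 18, AT3TE57470 14, AT3TE51335 12, AT3TE52510 10 and AT5TE43665 10. All but AT1TE29570, which had 5 exons and overlapped an ncRNA gene, were single-exon models. Missing models elsewhere do not show that no transcript was made, as each lay at up to 2.5 times the minimum.

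The share of spliced loci was higher among loci only in ddm1 polV than among shared loci, with overlapping intervals. A multi-exon model was found at 52 of the 87 (59.8%, 48.7 to 70.1), at 17 of the 40 shared loci (42.5%, 27 to 59.1) and at 1 of the 4 loci only in ddm1. Models of 5 or more exons occurred at 16 of the 87 loci (18.4%) and at 3 of the 40 (7.50%). Among loci with at least 20 reads in ddm1 polV the multi-exon shares were 66.7% of 27 and 44.1% of 34. Spliced length of the longest model had a median of 903 nt (695 to 1128) at loci only in ddm1 polV, 685 nt (592 to 914) at shared loci and 516.5 nt at the 4 loci only in ddm1. With at least 20 reads, the first 2 medians were 704 and 685 nt. The longest open reading frame, from ATG to stop, had a median of 107 codons (85 to 142) at loci only in ddm1 polV and 69.5 codons (37 to 80) at shared loci. These intervals did not overlap, but the length of a model bounds its reading frame. Reading frames were not compared at 20 reads or more, or at equal model length. GC content had medians of 41.7% (40.6 to 42.8) and 39.1% (38 to 42.5).

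**Figure D3:**
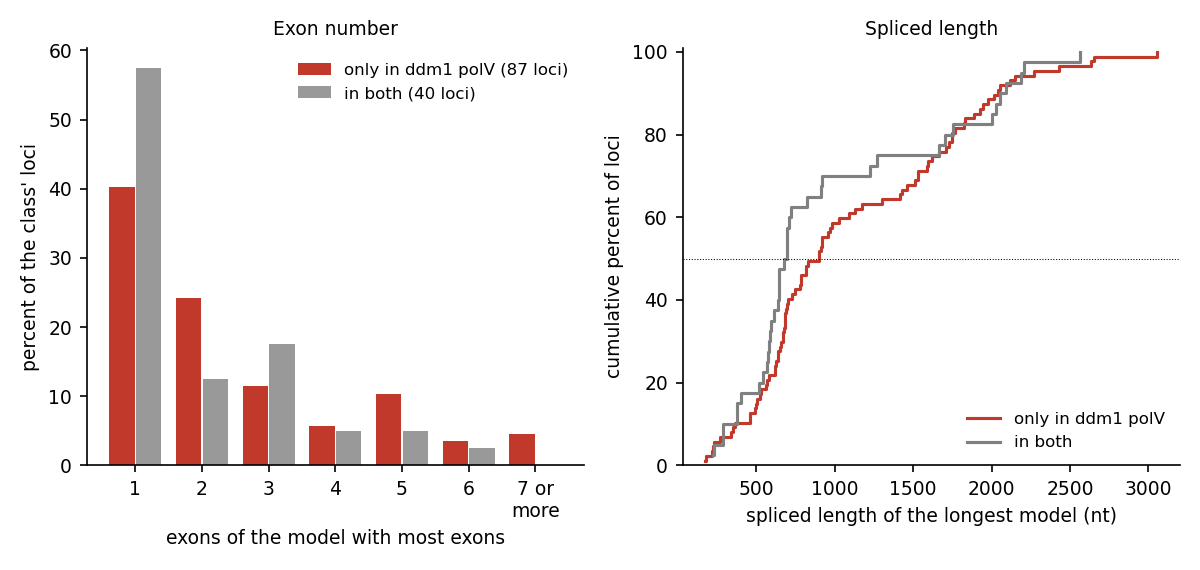
Left, percent of loci (vertical axis) by the exon number of the model with most exons (horizontal axis) for 87 loci only in ddm1 polV and 40 loci in both libraries. Right, cumulative percent of loci by spliced length of the longest model in nt; the curve of loci only in ddm1 polV lies to the right around the medians (903 and 685 nt), and the curves meet among the longer models.

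The model with most exons was at AT2TE26855 (chr2:6566364-6571520, in the pseudogene AT2G15140), with 12 exons, 3056 nt, a 525-codon reading frame and 13 reads. It was also the longest model of ddm1 polV. Its sequence had 10 near-identical places, none of them a locus of the pair. Models of 12 exons were listed there in replicates A (14 reads) and B (70 reads), and none in ddm1 or ddm1 rdr6. AT2TE20205 had 10 exons, 2636 nt and a 745-codon reading frame with 10 reads, on exons of the protein-coding gene AT2G12205 and the pseudogene AT2G12210. AT4TE89790 and AT5TE51685 had 7 exons each, with 11 reads each. AT1TE65060 (shared) had 6 exons, as did AT1TE52590, AT2TE22040 and AT2TE23705, found only in ddm1 polV. AT1TE45020 (2653 nt, 4 exons, 10 reads) and AT3TE57470 (2431 nt, 1 exon, 14 reads) were only in ddm1 polV, and AT1TE52925, an hAT-like element, was shared (2564 nt, 4 exons). AT1TE52925 had 12 reads in ddm1 and 38 in ddm1 polV.

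Nearly all introns of loci only in ddm1 polV had the letters of spliceosomal introns. Over the whole pair, 180 of 183 introns were GT-AG. Whether the alignment favoured these letters was not checked. Of 140 distinct introns at these loci, 138 began with GT and ended with AG, 1 was GC-AG, and 126 were also found in ddm1 rdr6, A or B. Their median length was 102 nt. The 1 remaining intron, of 180420 nt at AT4TE15820-2, joined the letters CT and AG, and a model with the same ends was found in replicate B with 29 reads. Its donor and acceptor windows, with the outer 2 bases of the intron in capitals, show the departure.
AT4TE15820-2 donor (plus strand, chr4:3507944-3507983): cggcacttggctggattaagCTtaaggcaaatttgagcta
AT4TE15820-2 acceptor (plus strand, chr4:3688364-3688403): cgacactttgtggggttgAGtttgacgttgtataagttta
This model lay antisense to exons of the pseudogenes AT4G06566 and AT4G06604. Whether this junction is an intron was not tested.

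Loci were put into 1 sequence group where alignments of their longest models reached 80% identity and covered 80% of the shorter model. Of the 131 loci, 56 fell into 15 groups, and 32 of the 87 loci only in ddm1 polV were in a group. Of these 32, 19 had a group member with a ddm1 model. In 4 of the 15 groups every member was only in ddm1 polV, the class of 66.4% of all 131 loci. The MuDR-like group of AT1TE44125, AT3TE70635, AT5TE44235 and AT5TE53465 (95.4 to 97.9% identity) had 44 reads in ddm1 polV in all. By locus these were 10, 11, 13 and 10 reads, at or near the minimum of 10. The group of AT1TE42890, AT1TE62470 and AT5TE65540, of which the first 2 matched CACTA proteins, had 43 reads (20, 11 and 12), and 5 exons at each locus. AT1TE42890 and AT5TE65540 also had a near-identical place at AT3TE50670, a locus only in ddm1. The group of AT2TE22040, AT4TE05190, AT4TE10345 and AT5TE51685 had 68 reads. The last was AT1TE60180 with AT2TE07745, at 99.0% identity, with 42 reads.

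In other groups, copies of 1 element lay on both sides of the comparison. The MuDR-like group of AT1TE27295 held 2 shared loci and 2 loci only in ddm1 polV (AT2TE43165 and AT4TE25050) at 98.4 to 99.6% identity, and its reads summed to 56 in ddm1 and 259 in ddm1 polV. The group of AT2TE06955 held 1 shared locus and 4 only in ddm1 polV, all multi-exon, with 12 and 84 reads. Its shared locus alone had 12 and 13. The group of AT1TE54480 held 1 shared locus and 3 only in ddm1 polV, with 12 and 60 reads. Loci only in ddm1 polV add reads to 1 side of such sums by definition. Of the 10 groups with both kinds of loci, others had 158 and 336 reads (AT1TE46665) or 298 and 523 (AT2TE16800). That of AT1TE65060 had 36 and 24, and that of AT2TE19610 26 and 367. The group of AT3TE67445, AT4TE10210 and AT4TE25065 was shared throughout, with 61 and 318 reads. The 60 bases before the starts of those 3 loci were identical.

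Near-identical copies limit how surely a read belongs to its locus. A place elsewhere in the genome matched 45 of the 87 loci only in ddm1 polV (51.7%) and 20 of the 40 shared loci (50%), where a match needed 95% identity along 90% of the model. At 14 of the 87 loci such a copy had a model in ddm1. The other 42 loci had no such place elsewhere, and 24 of them had no model in ddm1 rdr6 either. AT3TE60425, with 95 reads, was the highest of the 42.

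Matches to named TE proteins were few. Of the 87 loci only in ddm1 polV, 6 matched CACTA proteins, 6 MuDR, 2 Copia, 1 Gag-Pol and 1 hAT (16 in all, 18.4%, 10.9 to 28.1). Of the 40 shared loci, 2 matched MuDR, 1 hAT and 1 a reverse transcriptase (10%, 2.79 to 23.7). No shared locus matched a CACTA protein, which with 40 loci allows a share of such matches of up to 8.81% (exact upper limit). This limit describes protein matches and not TE types, as loci without a match were given no type. AT5TE65540, for example, had no match, although the other loci of its sequence group matched CACTA proteins. AT2TE19610 and AT3TE60425, the locus of highest ratio and the locus of most reads among those only in ddm1 polV, matched each other at 89.7% and no protein of the search.

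A protein-coding exon on the same strand was overlapped by 7 of the 87 loci (8.05%) and 2 of the 40. They were AT1TE44125 (AT1G36085, 10 reads), AT1TE59235 (AT1G48285, 29), AT2TE20205 (AT2G12205, 10), AT4TE09780 (AT4G04265, 11), AT4TE89790 (AT4G39900, 11), AT5TE55140 (AT5G38190, 11) and AT5TE72580 (AT5G49645, 32). Reads of a TE and of the gene on the same strand were not told apart. Of the 21 names of silencing genes looked for, NRPE1 (the largest subunit of Pol V), DDM1 and RDR6 among them, none was overlapped by a locus of the pair. The mutations were therefore not checked through these genes. The same held for 14 names of floral, leaf and root marker genes, since the files used here hold TE models.

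Shared loci mostly had more reads in ddm1 polV. Of 40, 33 were higher there and 7 lower, and the median ratio was 2.2 (1.64 to 2.92). Library totals are unknown, so the ratios are set against this median here. It comes only from loci with at least 10 reads in both libraries. The 87 loci without a ddm1 model and the 4 without a ddm1 polV model do not enter it, so it does not measure depth. A ratio of 4 or more was found at 6 of the 40 shared loci (15%) and a ratio of 0.25 or less at 1 (2.5%). By its own counting interval, 8 loci lay above the median ratio and 9 below it.

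AT2TE19610 (chr2, no annotated gene on either strand) stood highest, with 26 reads in ddm1 and 272 in ddm1 polV, a ratio of 10.5 (6.99 to 16.3). It had 49 reads in ddm1 rdr6, 137 in A and 830 in B. AT4TE15820 (pseudogene AT4G06566) had 39 and 280 reads, 7.18-fold (5.12 to 10.3). AT3TE67445 (pseudogene AT3G45360) had 27 and 177 reads, 6.56-fold (4.36 to 10.2). AT4TE25065, of the same sequence group as AT3TE67445, had 12 and 67 reads, 5.58-fold (3 to 11.3), and no model in replicate A. AT4TE19905, a single-exon model in the pseudogene AT4G07936, had 19 and 88 reads, 4.63-fold (2.80 to 8.06). It had no model in ddm1 rdr6 or replicate A and 20 reads in replicate B. The other 3 of the 8 highest were AT1TE44630 (19 and 78 reads, 4.11-fold), AT4TE67560 (32 and 115, 3.59-fold) and AT1TE44450 (24 and 84, 3.50-fold).

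**Figure D4:**
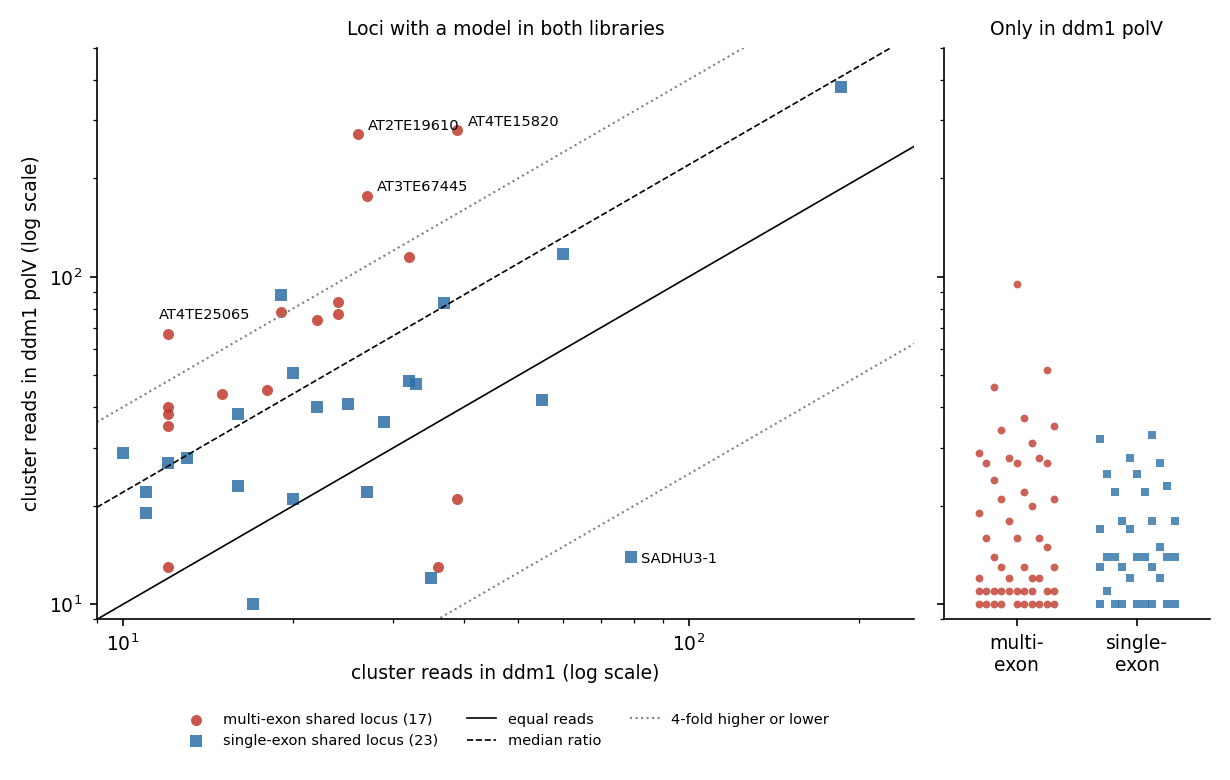
Left, cluster reads of 40 shared loci in ddm1 (horizontal axis) and ddm1 polV (vertical axis), both on log scales; red circles are 17 multi-exon loci, blue squares 23 single-exon loci, and lines mark equal reads, the median ratio and a 4-fold difference. Right, reads in ddm1 polV of the 87 loci without a ddm1 model, by exon structure; most lie near the minimum of 10 reads.

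Among shared loci, spliced ones had the higher median ratio. The 17 loci with a multi-exon model in either library had a median ratio of 3.33 (2.92 to 4.11), and 15 of them were higher in ddm1 polV. The 23 single-exon loci had a median ratio of 1.73 (1.24 to 2.15), and 18 were higher. Multi-exon loci held 381 of the ddm1 reads at shared loci (32.7%) and 1473 of the ddm1 polV reads (54.4%). This split was noticed after the ratios were seen and has no test. With 20 reads or more in both libraries, the log2 interval of multi-exon loci was -0.89 to 3.39. It then covered the single-exon median (0.65). Of the 6 loci at 4-fold or more, 5 were multi-exon and AT4TE19905 was not. At 15 multi-exon loci with models also in ddm1 rdr6 and replicate A, the ratio of A to ddm1 rdr6 had a median of 0.701 (0.543 to 0.817). At 16 single-exon loci it was 0.578 (0.410 to 1.10), so the order of the medians was the same with overlapping intervals.

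The 4 shared loci of lowest ratio were of different kinds. SADHU3-1 (AT3TE63935), a Sadhu element, had 79 reads in ddm1 and 14 in ddm1 polV, a ratio of 0.177 (0.0927 to 0.315). AT5TE72200, opposite in strand to the coding gene AT5G49440, had 36 reads in wt. It had 35 and 12 reads, a ratio of 0.343 (0.162 to 0.676), with 29 in replicate A. AT1TE65060 (pseudogene AT1G52850) had 36 and 13 reads, 0.361 (0.176 to 0.697), from models of different extent. AT3TE51150 overlaps QQS, a protein-coding orphan gene known from Arabidopsis to affect starch content, and had 39 and 21 reads, 0.538 (0.301 to 0.938). In ddm1 rdr6 and replicate A, which share no library with the pair, the 4 loci had 159 and 85, 53 and 29, 23 and 10, and 15 and 11 reads in the same order of loci. Each was thus lower in replicate A as well, where 25 of the 31 shared loci with models in all 4 libraries were lower. The set was chosen by low ratios in the first pair, so only the second pair's values are independent of the choice.

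Transcript structures at shared loci were mostly the same in both libraries. The intron chains were identical at 33 of 40 loci, and 30 of the 31 distinct introns of ddm1 were found again in ddm1 polV. The most-read models started within 10 nt of each other at 33 loci and ended within 10 nt at 31, and all 40 ends lay within 24 nt. Shared loci had 44 models in ddm1 and 55 in ddm1 polV, with more in ddm1 polV at 9 loci and fewer at none. Over 1 model was listed in ddm1 polV at 11 of the 40 shared loci (27.5%) and at 3 of the 87 others (3.45%). Those 3 were AT3TE60425, AT2TE12555 and AT2TE22040. Each model needed at least 10 reads, so a locus under 20 reads could not have over 1 model. In ddm1 polV, 60 of the 87 loci had under 20 reads, against 6 of the 40 shared loci. The read minimum thus limits this contrast, and the classes were not compared at equal reads. It also limits the model numbers at shared loci, where median reads were 22 in ddm1 and 40.5 in ddm1 polV.

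AT1TE45375 (minus strand) had different intron chains in ddm1 and ddm1 polV. Its ddm1 model had 2 exons and 12 reads, and both ddm1 rdr6 models had 2 exons (35 and 14 reads). Both models of ddm1 polV had 3 exons (27 and 13 reads), as did both of replicate A (28 and 12). The extra intron lay inside the first exon of the ddm1 model. Replicate B, also a polV mutant, held the extra intron in 1 model of 208 reads and had 4 models without it, of 167, 46, 34 and 10 reads. The extra intron therefore did not divide all libraries by the polV mutation. The extra intron was 456 or 461 nt long in ddm1 polV, from 1 donor to alternative acceptors 5 bases apart, shown with the outer 2 bases of the intron in capitals.
AT1TE45375 donor (minus strand, chr1:13841462-13841501): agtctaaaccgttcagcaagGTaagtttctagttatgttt
AT1TE45375 acceptor of the 456-nt intron (chr1:13841006-13841045): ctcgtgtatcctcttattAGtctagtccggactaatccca
AT1TE45375 acceptor of the 461-nt intron (chr1:13841001-13841040): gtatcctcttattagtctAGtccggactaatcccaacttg
With 12 reads in ddm1, a 3-exon form under the 10-read minimum would not have been listed.

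AT2TE19610 and AT3TE60425 shared a skipped exon. In ddm1 polV, AT2TE19610 had a 3-exon model of 221 reads and a 2-exon model of 51 reads, and in ddm1 only the 3-exon model, of 26 reads. The 2-exon form was also listed in ddm1 rdr6 (14 reads against 35) and in replicate A (16 against 121). AT3TE60425 had a 4-exon model of 55 reads and a 3-exon model of 40 that left out the corresponding second exon. In ddm1 rdr6 its only model, of 12 reads, was the one without that exon. The donors of the first intron were the same at 38 of 40 bases.
AT2TE19610 first donor (plus strand, chr2:4727647-4727686): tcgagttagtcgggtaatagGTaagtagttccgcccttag
AT3TE60425 first donor (minus strand, chr3:14791287-14791326): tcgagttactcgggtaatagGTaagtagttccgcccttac

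At some single-exon shared loci ddm1 polV had a longer unspliced model that ddm1 lacked, and other loci went the other way or had long models in both. AT2TE20940 had a model of 584 nt in ddm1 (22 reads), and models of 572 nt (30 reads) and 2095 nt (10 reads) in ddm1 polV. AT5TE44730 had a 576-nt model in both (13 and 15 reads) and one of 2055 nt in ddm1 polV alone (13 reads). AT2TE12555, of the same sequence group and only in ddm1 polV, had models of 579 nt (13 reads) and 2015 nt (12 reads). AT4TE16900 had models of 517 and 652 nt in ddm1 (136 and 50 reads), and of 520, 652, 759 and 2188 nt in ddm1 polV (284, 65, 14 and 16 reads). No model of ddm1, ddm1 rdr6 or replicate A at AT2TE20940 or AT5TE44730 was longer than 584 nt, and replicate B had long models at both (37 and 16 reads). Replicate A had no model at AT5TE44730. In contrast, AT1TE54480 had its long model in ddm1 (2028 nt, 12 reads) and a model of 782 nt in ddm1 polV (27 reads). AT4TE15420, in the sequence group of AT2TE20940, had most-read models of 2001 nt in ddm1 and 2004 nt in ddm1 polV. At AT4TE16900 ddm1 rdr6 had a 2-exon model of 2099 nt with 14 reads. The long models had 10 to 16 reads in ddm1 polV, at or near the minimum, and a form making up the same share of fewer reads would not have been listed in ddm1.

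**Figure D5:**
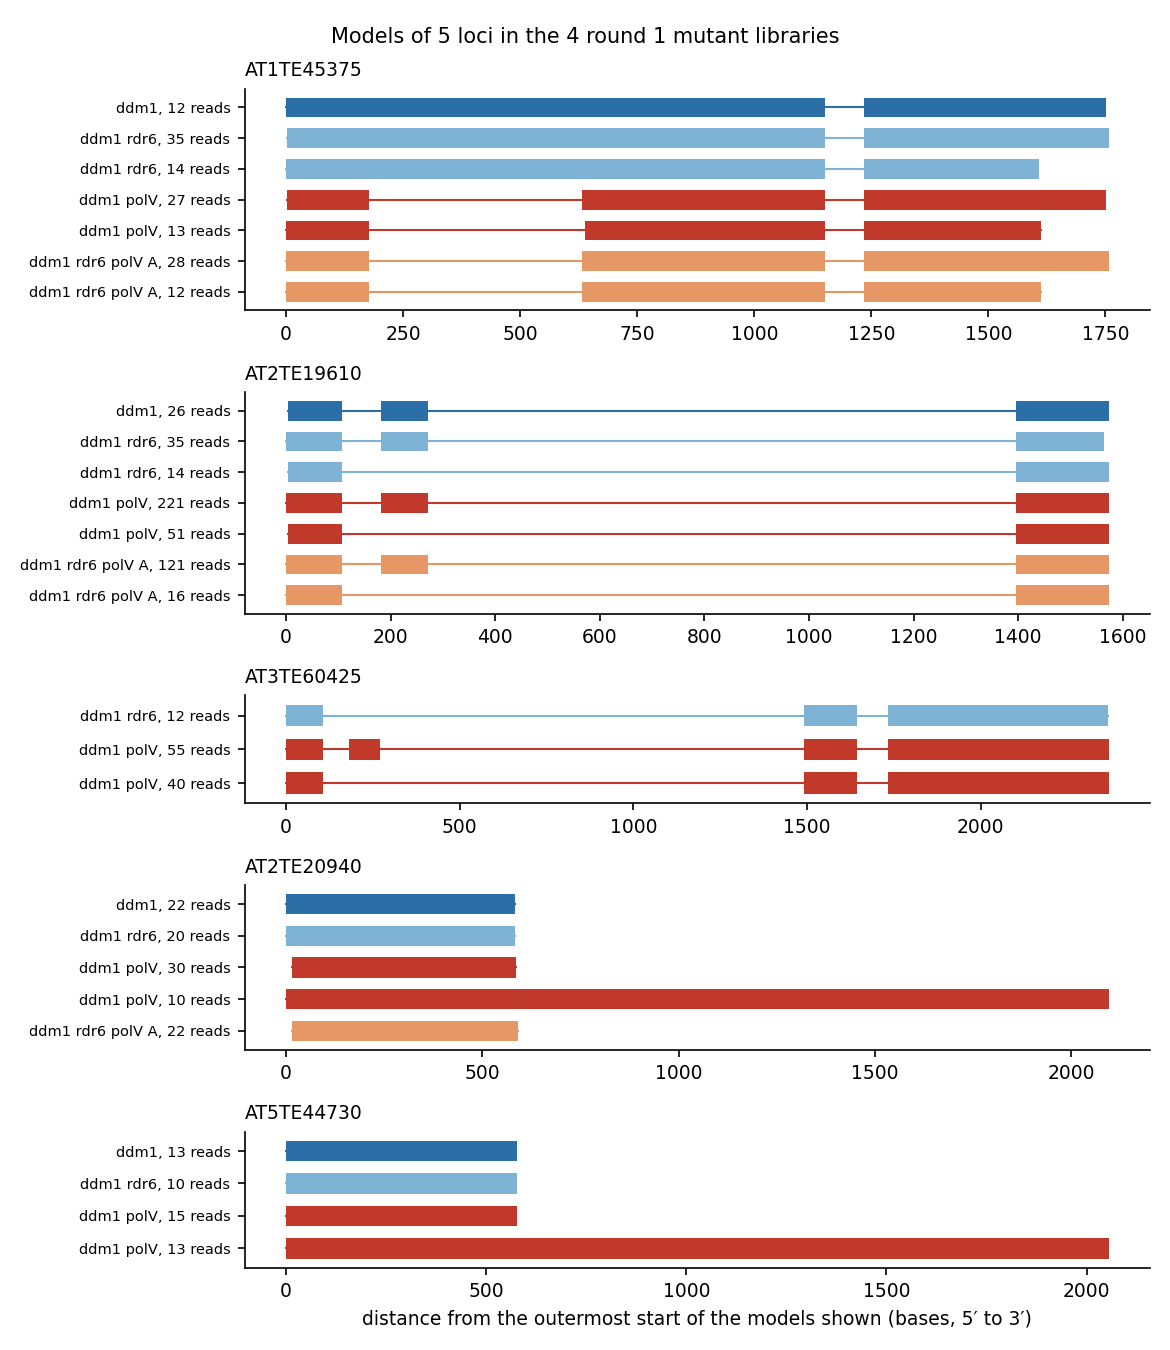
Models of 5 loci in ddm1, ddm1 rdr6, ddm1 polV and replicate A, with exons as blocks and introns as lines, by distance in bases from the outermost start (horizontal axis, 1 scale per locus); each row is 1 model with its cluster reads. The first intron of AT1TE45375 is seen in ddm1 polV and replicate A, the models without the second exon at AT2TE19610 and AT3TE60425, and the long models at AT2TE20940 and AT5TE44730 in ddm1 polV.

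AT1TE65060 and QQS also had more exons in ddm1 polV, with fewer reads. At AT1TE65060 the ddm1 model was a single exon of 183 nt with 36 reads, and the ddm1 polV model had 6 exons and 1754 nt with 13 reads. Both ended within 5 bases of each other. The 6-exon structure was also found in ddm1 rdr6 (23 reads) and replicate B (44), while replicate A had a 2-exon model of 553 nt (10 reads). At QQS the ddm1 model had 3 exons, and the models of ddm1 polV, ddm1 rdr6 and replicates A and B had 4. The donor of the second intron of AT1TE65060 resembled donors of 2 loci found only in ddm1 polV, AT2TE22040 (30 of 40 bases the same) and AT5TE51685 (32 of 40).
AT1TE65060 (plus strand, chr1:19677877-19677916): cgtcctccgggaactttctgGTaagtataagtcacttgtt
AT2TE22040 (plus strand, chr2:5442141-5442180): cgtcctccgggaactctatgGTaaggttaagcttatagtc
AT5TE51685 (plus strand, chr5:14381140-14381179): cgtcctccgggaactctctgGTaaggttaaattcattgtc

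AT4TE15820 and AT4TE16900 had most models in ddm1 polV, 4 each against 2 in ddm1. At AT4TE15820 the most-read forms were 2-exon models of 294 nt (134 reads) and 822 nt (103 reads), ending at different places, and a single-exon model of 588 nt (23 reads) was listed in ddm1 polV and not in ddm1. A single-exon model of that length was also in replicates A (13 reads) and B (57). No other locus had over 2 models in ddm1 polV.

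The 4 loci only in ddm1 had 10 to 15 reads there. AT2TE26230 (131 nt, 1 exon) had 10 reads in ddm1 and 11 in ddm1 rdr6, and no model in any polV mutant library. AT3TE50670 (2733 nt, 1 exon) had 10 and 13 reads, none in ddm1 polV or replicate A, and 10 in replicate B. AT4TE23345 (755 nt, 2 exons) had 15 and 10 reads, none in ddm1 polV or A, and 39 in B. AT5TE39315 (278 nt) had 11 reads in ddm1, with 31 reads in ddm1 rdr6, 37 in A and 311 in B. Among the polV mutant libraries only ddm1 polV had no model at this locus. A separate locus with the same first identifier, AT5TE39315-2, had 10 reads in ddm1 polV, 14 in A and 59 in B, and no model in ddm1. This TE identifier thus stood in both classes.

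Loci of both main classes lay mostly around the centromeres. Bins of 500 kb with under 40% protein-coding bases, called pericentromeric here, held 67 of the 87 loci only in ddm1 polV (77.0%, 66.8 to 85.4), 33 of the 40 shared loci (82.5%, 67.2 to 92.7) and all 4 loci only in ddm1. The same bins held 21.4% of nuclear bases, 7.98% of protein-coding genes and 72.5% of 4843 annotated pseudogenes, a class that includes many TEs. Median distance to the nearest protein-coding gene was 3524 bp (2520 to 7001) for loci only in ddm1 polV and 5836 bp (2954 to 11330) for shared loci. Chromosome 5 held 17 of the 87 and 3 of the 40, and chromosome 4 held 13 and 12.

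The same comparison with RDR6 also mutated, ddm1 rdr6 against replicate A, gave other numbers. Those libraries had 115 loci, of which 23 were only in replicate A (20%), 57 were shared and 35 were only in ddm1 rdr6. The median ratio of reads at their shared loci was 0.800 (0.676 to 1). At the 31 shared loci of the main pair with models in all 4 libraries, the ratio of ddm1 polV to ddm1 had a median of 2.24 (1.64 to 3.17), with 26 higher. The ratio of A to ddm1 rdr6 had a median of 0.667 (0.535 to 0.816), with 6 higher. AT2TE19610 was among these 6, at 2.80-fold. Sequencing depth and the polV mutation cannot be told apart within either pair, since each library was 1 barcode of unknown total.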

How the data were processed

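Long-read PCR-cDNA of poly(A) RNA was sequenced on an Oxford Nanopore MinION, 1 library per genotype except ddm1 rdr6 polV. The authors deposited transcript models with exons, and lists pairing models with TEs. Per the submitters' processing notes, reads were aligned with minimap2 to TAIR10, and per the file headers the models came from pinfish. Versions, cluster settings and how unspliced models got their strand are not stated in the sources used here. The deposited counts are whole numbers of 10 or more in the model names, read here as cluster reads, which the files do not state. The deposited score column held 0 throughout and was not used. Library totals are unknown.

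Loci were built with Python 3.11.15, annotated from TAIR10.1, and aligned with minimap2 2.31 and BLAST+ 2.17.0 (105 TE proteins, e-value 1e-05). Of 183 introns in the pair, 180 were GT-AG. Code was tested on simulated models. No test was run, with 1 library a side: shares have exact Clopper-Pearson intervals, medians order-statistic intervals and ratios conditional binomial intervals, all at 95%. Named loci were taken by rule: all loci only in ddm1, the 10 loci only in ddm1 polV with most reads, the 8 highest and 4 lowest shared ratios, the 5 loci with most models, the 5 models with most exons and the 5 longest, groups with 3 or more loci only in ddm1 polV, and overlaps with protein-coding exons. Loci named for their isoforms, start windows or presence elsewhere, and the other sequence groups named, were chosen after their values were seen. Members, lists and rules were all chosen with earlier results of these data known. Pseudogenes replaced annotated TEs as position background, because TE coordinates were not used here.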

Additional observations from a re-analysis of the deposited data

Results flagged for a closer look

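The read ratios of polV mutant over Pol V-intact libraries had opposite signs in the pair with RDR6 intact and in the pair with RDR6 mutated. At 31 loci with models in all 4 round 1 libraries, the median log2 read ratio was 1.17 for ddm1 polV over ddm1 and -0.58 for replicate A over ddm1 rdr6. Loci only in ddm1 polV outnumbered loci only in ddm1 by 83, while loci only in replicate A minus loci only in ddm1 rdr6 came to -12. Each of these 4 groups was 1 library of unknown total, so the difference was not tested, and depth and the polV mutation cannot be told apart. Outlying samples could not be looked for with 1 library a group.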

How the results depend on the processing

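Locus numbers were the same with an overlap of 50%, on either strand and with loci built from all 6 libraries. In the order only in ddm1 polV, shared and only in ddm1 (87, 40 and 4), they were 39, 18 and 3 at 20 reads, 22, 30 and 14 with the ddm1 polV minimum times the median shared ratio, and 4, 19 and 25 with it times the summed-read ratio. They were 53, 16 and 1 with multi-exon models only, 80, 38 and 4 without protein-coding exons, 42, 20 and 3 without near-identical places (added after seeing the data), and 23, 57 and 35 for ddm1 rdr6 against replicate A. The pericentromeric share of loci only in ddm1 polV was 64.4% with bins under 30% protein-coding. Shared loci with over 1 model in ddm1 polV made up 10% with each intron chain counted once, and 4 rather than 7 shared loci differed in chain by their most-read models. Of 80 alternative values for these results, 63 stayed within the main interval or within 1.5 times the main number. Some could hardly leave it, as intervals of the 4 loci only in ddm1 were wide (0.63 to 80.6% for the multi-exon share). The median log2 read ratio at shared loci (1.14) ranged from 0.98 to 1.17 without each chromosome in turn, and was 0.98 by most-read models and 1.00 with 20 reads in both libraries. Ratios of the 40 single loci by most-read models all lay within their intervals. Only the 11 loci with over 1 model in ddm1 polV could change, as the others had 1 model a side. For multi-exon loci the median log2 ratio ranged from 1.61 to 1.83 and for single-exon loci from 0.58 to 0.79 over 4 alternatives added after seeing the data. The multi-exon interval was -0.89 to 3.39 with 20 reads in both libraries, and 0.12 to 1.75 without loci of 4-fold or more. Both intervals covered the single-exon medians. No paired analysis was possible because each group had 1 library, and no replicate could be left out. With 10 reads as the minimum, loci under it in ddm1 could not be seen, which limits every statement on absence.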

Other observations

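Replicate B had the deeper library per the labels, yet 8 of the 40 shared loci (20%) and 17 of the 87 loci only in ddm1 polV (19.5%) had more cluster reads in ddm1 polV than in B. SADHU1-1 (AT2TE16940) had 117 reads in ddm1 polV and 10 in B, with 60 in ddm1, 114 in ddm1 rdr6 and 98 in A. AT4TE10210 had 74 and 14 reads, although AT3TE67445, whose start window was identical, had 177 and 469. AT1TE47605 had 20 reads in ddm1 and 51 in ddm1 polV and no model in ddm1 rdr6, A or B. AT4TE19905 had 88 reads in ddm1 polV and 20 in B. These loci were listed after their values were seen, and which plants or positions set them apart was not tested.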
